A study of Homo sapiens with 12 samples.

Results

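Histone genes were followed in L428 cells, a Hodgkin lymphoma cell line, through 2 doses of ixazomib and in cells resistant to the drug. The members are all gene symbols on the array that start with HIST1H, HIST2H, HIST3H, HIST4H, H1F, H2AF or H3F, each read by its brightest probe. There were 85 such genes among 31303 symbols: 70 clustered genes, which lie in the HIST loci, and 15 variant genes, which lie outside them. A probe above background on at least 3 of the 12 arrays was found for 57 of the 85, namely 47 clustered genes and 10 variants.

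Ixazomib blocks the proteasome, and the study profiled its effect on gene expression in lymphoma cells on Illumina HT-12 bead arrays. The 4 groups of 3 arrays were control L428 cells, L428 cells given 25 nM ixazomib for 24 h, L428 cells given 71.25 nM for 24 h, and an ixazomib-resistant form of the line. The column names of the signal table call the drug MLN2238, the active form of ixazomib. The labels give no vehicle for the controls, no dose for the resistant cells, and no word on whether drug was present when those cells were harvested or how many clones they came from. Replicates of the 25 nM experiment are described as biological; whether the other replicates came from separate cultures is not stated, so p-values measure the spread between these samples. One sample titled 71.25 nM carries a free-text description that names 25 nM, and its title, source and treatment fields were followed.

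Clustered histone genes supply the bulk of the core histones H2A, H2B, H3 and H4 and of the linker histone H1 during S phase. Their main transcripts lack introns and end in a conserved stem loop, bound by SLBP, instead of a poly(A) tail, and they are made and degraded in step with DNA replication. Most variant genes are transcribed through the cell cycle, yield polyadenylated mRNAs, and place specialised histones such as H3.3 or H2A.Z in chromatin without replication. Some clustered genes also yield polyadenylated transcripts, mostly in cells that divide slowly or differentiate, and 7 genes of that kind were treated as a named set (HIST1H1C, HIST1H2AC, HIST1H2BD, HIST1H2BK, HIST1H4H, HIST2H2BE and HIST2H2AA3). The labelling kit named in the labels primes cDNA from poly(A), as background, so a stem-loop transcript and its polyadenylated form may be read with unequal efficiency. The array signal does not separate these forms.

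Many clustered genes lie head to head, with an H2A and an H2B gene reading away from a short shared promoter. The promoters of the genes on which the results turn are shown because the genes on either side of 1 such region were not always called alike. Sequences and positions are from RefSeq on GRCh38.p14, and capitals mark, on either strand and merged where they overlap, the octamer ATTTGCAT, the CCAAT box CCAAT and the TATA box TATAAA. The first 3 lines run 5′ to 3′ on the plus strand between the starts of both genes, the gene named first being the one read to the left; the other 6 lines give the 120 bases before the start, on the gene's own strand.
HIST2H2BE and HIST2H2AC (chr1:149886683-149886917, plus strand): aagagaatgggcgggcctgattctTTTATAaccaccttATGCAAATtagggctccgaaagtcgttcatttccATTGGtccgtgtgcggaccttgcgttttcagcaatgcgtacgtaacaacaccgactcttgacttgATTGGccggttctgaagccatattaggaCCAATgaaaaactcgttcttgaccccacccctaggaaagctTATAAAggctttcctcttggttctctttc
HIST1H2BC and HIST1H2AC (chr6:26123927-26124171, plus strand): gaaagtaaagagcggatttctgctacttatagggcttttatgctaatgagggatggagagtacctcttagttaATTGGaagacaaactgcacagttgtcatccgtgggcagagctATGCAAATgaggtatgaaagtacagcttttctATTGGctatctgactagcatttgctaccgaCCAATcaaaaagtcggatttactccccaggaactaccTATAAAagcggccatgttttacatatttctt
HIST1H2BJ and HIST1H2AG (chr6:27132796-27133042, plus strand): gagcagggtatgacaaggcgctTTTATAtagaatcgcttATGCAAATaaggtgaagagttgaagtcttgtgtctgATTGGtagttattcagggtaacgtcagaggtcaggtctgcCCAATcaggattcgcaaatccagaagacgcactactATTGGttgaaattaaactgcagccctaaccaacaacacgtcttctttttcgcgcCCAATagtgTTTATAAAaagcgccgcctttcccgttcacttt
HIST1H4H (chr6:26285535-26285654, minus strand): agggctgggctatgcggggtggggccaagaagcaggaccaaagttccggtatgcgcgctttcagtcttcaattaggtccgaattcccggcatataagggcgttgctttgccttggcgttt
HIST1H2BD (chr6:26158001-26158120, plus strand): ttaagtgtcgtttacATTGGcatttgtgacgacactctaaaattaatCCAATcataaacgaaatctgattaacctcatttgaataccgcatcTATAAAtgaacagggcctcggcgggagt
HIST1H2BK (chr6:27146859-27146978, minus strand): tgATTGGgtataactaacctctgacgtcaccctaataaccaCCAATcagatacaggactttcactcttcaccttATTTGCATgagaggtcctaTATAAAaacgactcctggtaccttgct
HIST1H2BM (chr6:27814902-27815021, plus strand): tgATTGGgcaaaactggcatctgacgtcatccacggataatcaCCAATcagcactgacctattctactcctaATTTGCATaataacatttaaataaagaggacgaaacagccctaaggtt
HIST1H2BH (chr6:26251494-26251613, plus strand): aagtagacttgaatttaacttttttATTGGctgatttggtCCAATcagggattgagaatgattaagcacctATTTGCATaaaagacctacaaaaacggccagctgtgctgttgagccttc
HIST1H4K (chr6:27831561-27831680, minus strand): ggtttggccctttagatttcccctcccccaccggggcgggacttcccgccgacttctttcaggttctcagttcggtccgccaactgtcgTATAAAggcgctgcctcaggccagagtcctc

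All 85 symbols matched a current RefSeq gene and 79 had a promoter entry. Within 250 bases before the start, the octamer stood in 26 of 65 clustered genes (40.0%), in 1 of 14 variants (7.14%) and in 1.66% of 27305 promoters of all genes. It was found in 14 of 18 H2B genes (77.8%) and 11 of 16 H2A genes (68.8%), but in 1 of 12 H3 genes (8.33%) and 0 of 13 H4 genes. The H3 gene was HIST1H3D, by a listed start that gives it the region between HIST1H2AD and HIST1H2BF. A CCAAT box stood in 84.6% of clustered genes against 33.0% of all promoters, and TATAAA in 66.2% against 11.1%. Both strands were searched, and head-to-head genes share much of this window, so 1 site can count for both genes of a pair. These matches are descriptions of the letters in the window and not of binding.

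Log2 values below are background-corrected, quantile-normalised probe signals, so a level is not compared between genes, and differences of dim probes are understated because 16 units were added before the logarithm. A call is an adjusted p under 0.05 in 1 limma fit over all 12 arrays, adjusted over all kept probes. The mean signal of an array lay between 293 and 401, with 17100 to 18785 of its 47227 probes detected; the number of arrays, 3 in each group, limits the precision. Log2 differences carried a standard error of 0.133 at the median. The Hodgkin label was checked by markers fixed with the lists: 10 of 11 Hodgkin cell markers were detected on all arrays, against 2 of 8 B cell (CD79A and BLK), 0 of 7 T cell, 2 of 6 myeloid (LYZ and CSF1R) and 0 of 8 stromal and epithelial markers. Marker signals were summed per array without background correction or normalisation, so the sums also vary with the brightness of an array. Mean signal was 343 to 401 for control arrays and 293 to 327 for resistant arrays. Hodgkin sums were 47836 to 58373 for controls and 41504 to 49154 under 25 nM. Under 71.25 nM they were 28681 to 33244, and resistant arrays gave 37478 to 39701. After normalisation 4 of the 11 Hodgkin markers were called higher and 6 lower when resistant cells were set against control. The B cell sums ran from 1225 to 1450 in controls and from 945 to 996 in resistant cells. The myeloid sums ran from 659 to 673, 662 to 705, 669 to 700 and 664 to 711, in the same order. T cell sums in resistant cells, 660 to 683, lay below those of the other groups, 685 to 757, and the stromal sums overlapped. Only 1 T cell marker passed the detection filter, and it was not called against control after normalisation. Of 5 measured B cell markers 1 was called lower in the resistant group, and of 3 measured myeloid markers 2 were called higher. The part of these marker changes in the histone results was not tested.

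Across the 4 groups, 40 of the 57 measured histone genes differed by the moderated F test, among them 32 of 47 clustered genes and 8 of 10 variants. Of all 14953 genes with a kept probe 52.7% did so. Only 1 of the 57, the linker histone gene HIST1H1D, passed the detection filter through a single group. Of the 28 genes that did not pass, 21 were detected on no array, including the variants H1F0, H1FNT, H1FOO, H2AFB3 and H2AFY2, and the other 7 on 1 or 2 arrays. In these bulk samples a change in the share of cells in a given phase or state and a change in RNA per cell cannot be told apart.

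The clustered genes split in opposite directions while their median stayed near 0. At 25 nM 4 rose and 9 fell, at 71.25 nM 10 rose and 12 fell, and in resistant cells 15 rose and 13 fell, of 47 in each case. Of all genes 13.3% were called higher and 13.7% lower under the lower dose, 19.4% and 19.6% under the higher dose, and 23% and 24.1% in resistant cells. Of the clustered genes 8.51% were called higher and 19.1% lower under the lower dose, 21.3% and 25.5% under the higher dose, and 31.9% and 27.7% in resistant cells. On which side of the shares of all genes they lay depended in part on the processing. Under housekeeping scaling 9 clustered genes rather than 4 were higher at 25 nM (19.1%, against 17.2% of all genes). On the authors' values 19.1% were higher at 71.25 nM, against 20.4% of all genes, and 23.4% were lower in resistant cells, against 24.9%. Median scaling also put the lower share in resistant cells, 29.8%, below that of all genes, 31.3%. Without control array 1 or 3 or 71.25 nM array 8 the higher share at 71.25 nM was 14.9%, 17% and 17%, against 17%, 17.6% and 17.7% of all genes. The median log2 difference from control was -0.04, 0.05 and -0.03 for clustered genes and -0.002, -0.01 and -0.02 for all genes. Over all 70 clustered genes without the detection filter, an alternative chosen after seeing the data, it was -0.03, 0.003 and -0.01. These 3 comparisons share the control arrays and are given side by side only. Scaling on housekeeping genes lifted the clustered medians to 0.09, 0.19 and 0.24, with the median of all genes at 0.09, 0.11 and 0.18.

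**Figure D1:**
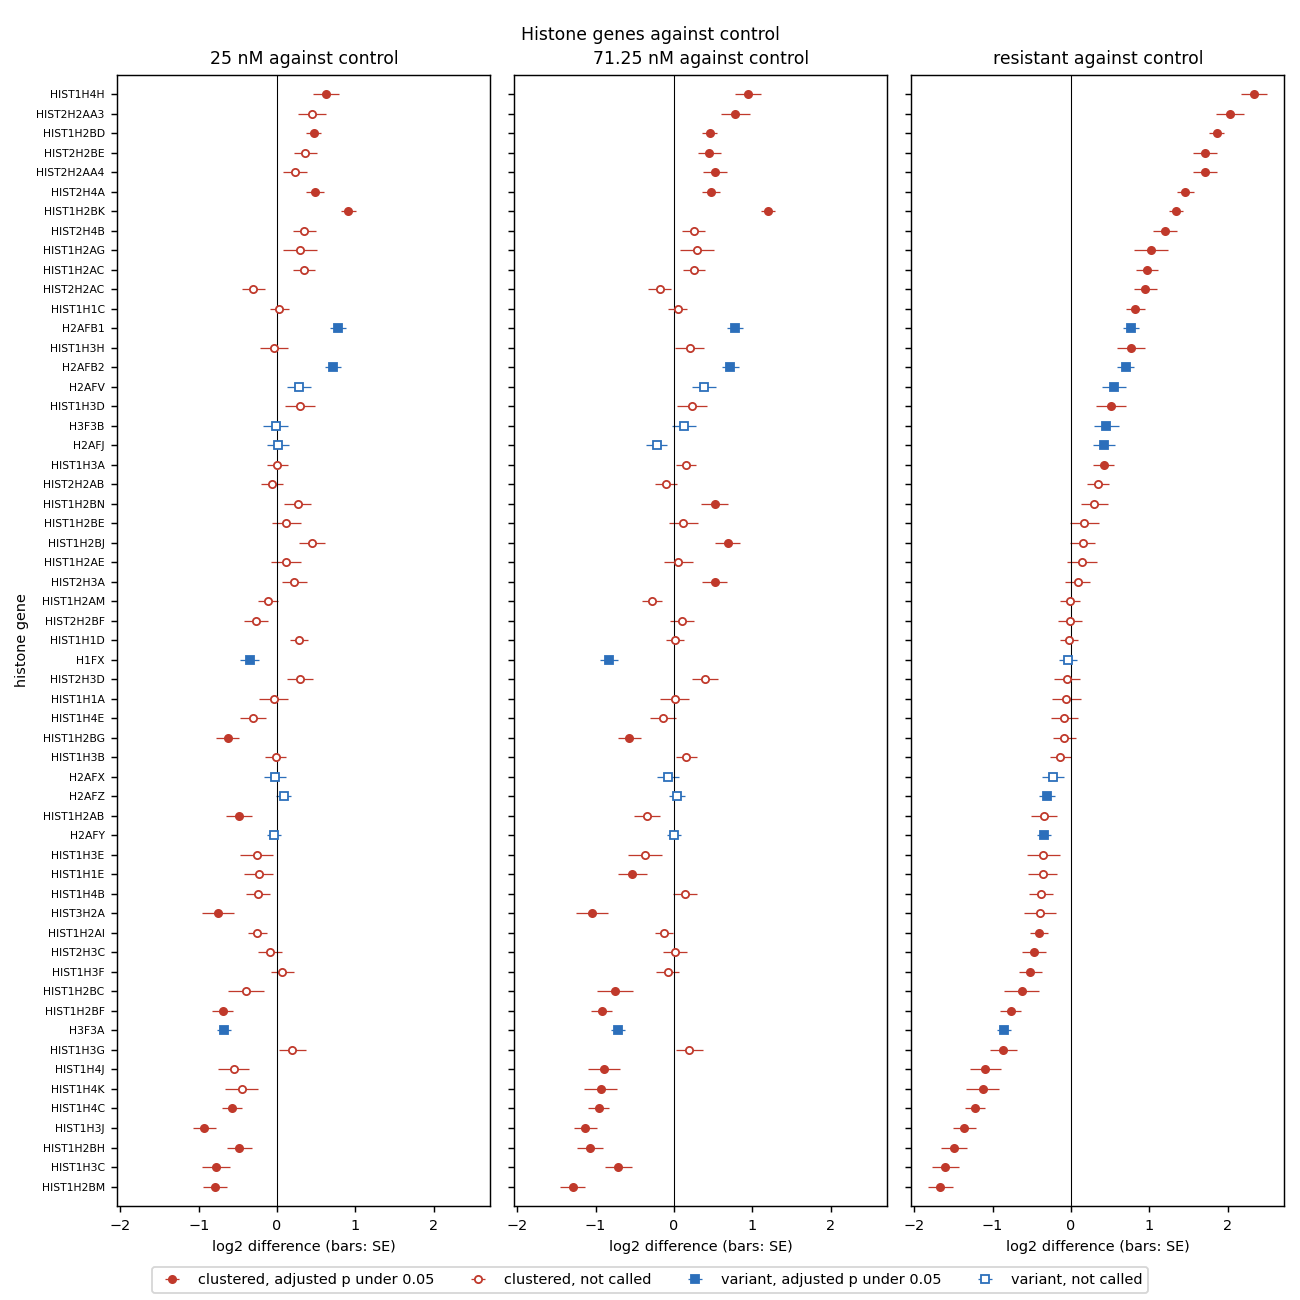
Log2 difference from control (x axis) of each of the 57 measured histone genes (y axis, ordered by the resistant cells) under 25 nM, under 71.25 nM and in resistant cells, with bars of 1 standard error; filled symbols are calls at adjusted p under 0.05, circles clustered genes and squares variants. Clustered genes fan out to both sides, in resistant cells from a fitted -1.67 for HIST1H2BM, which was not detected there, to 2.34 for HIST1H4H.

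Calls in the 3 comparisons, which share the control arrays, are listed by pattern. The share of all genes with each pattern was not counted, so the patterns are not read as a trait of histone genes. Of the 47 clustered genes, 4 were called higher in all 3 (HIST1H2BD, HIST1H2BK, HIST1H4H and HIST2H4A) and 6 lower in all 3 (HIST1H2BF, HIST1H2BH, HIST1H2BM, HIST1H3C, HIST1H3J and HIST1H4C). Another 8 were called higher in resistant cells alone and 4 lower in resistant cells alone, among them HIST1H1C, HIST1H2AC and HIST2H2AC on the first side and HIST1H3G and HIST1H3F on the second. A further 12 were called in none of the 3. The other calls fell on 7 genes in 1 or both doses only and on 6 in the higher dose and the resistant cells. Whether the effect of a dose differed from that in resistant cells is taken up with the direct comparison further on.

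HIST1H4H, an H4 gene of the named polyadenylated set, rose by the most in resistant cells. Its control arrays read 4.89, 5.52 and 5.57 on the log2 scale, the 25 nM arrays 6.19, 5.98 and 5.68, the 71.25 nM arrays 6.28, 6.26 and 6.27, and the resistant arrays 7.75, 7.63 and 7.62. Every treated or resistant array lay above every control. The differences from control were 0.63 ± 0.17 (SE), 0.95 ± 0.17 and 2.34 ± 0.17 (adjusted p = 0.0143, 0.000558 and 9.92e-08), the last a 5.07-fold rise. The 25 nM call was lost without control array 1 (adjusted p = 0.0539) or 25 nM array 4 (0.0673), and in a fit of the 2 groups (0.0516).

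HIST1H2BK, an H2B gene with the octamer, was the clustered gene with the largest rise at both doses. It read 10.61, 10.61 and 10.74 in controls, 11.55, 11.53 and 11.61 under 25 nM, 11.86, 11.87 and 11.81 under 71.25 nM, and 12.02, 11.92 and 12.03 in the resistant cells. The 4 groups did not overlap. The log2 differences from control were 0.91, 1.20 and 1.34 (SE 0.09; adjusted p = 9.97e-06, 3.51e-07 and 5.56e-08), and the other probe of the gene gave 0.82, 1.00 and 1.09.

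HIST1H2BD, another H2B gene, stepped up with the drug and again in the resistant cells. Controls read 6.93, 6.77 and 7.01, the 25 nM arrays 7.42, 7.35 and 7.35, the 71.25 nM arrays 7.31, 7.42 and 7.36, and the resistant arrays 8.77, 8.80 and 8.73. The 2 doses overlapped each other and lay between the controls and the resistant cells. Its log2 differences were 0.47, 0.46 and 1.86 (SE 0.10; adjusted p = 0.00258, 0.00181 and 3.92e-09) by the brighter probe and 1.15, 1.01 and 2.64 by the dimmer one, so the size of the change depended on the probe.

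HIST2H2BE, the H2B gene of the chromosome 1 cluster in the named set, read 5.44, 5.80 and 5.16 in controls, 5.93, 5.83 and 5.74 under 25 nM, 5.73, 6.14 and 5.89 under 71.25 nM, and 7.28, 7.13 and 7.15 in the resistant cells. Only the resistant arrays stood clear of the controls. The rise in resistant cells was 1.72 ± 0.15 (adjusted p = 7.12e-07, 3.29-fold). At 71.25 nM the difference of 0.45 ± 0.15 passed (adjusted p = 0.0305) but did not hold without control array 1 (0.0752) or 3 (0.135), or without 71.25 nM array 8 (0.125) or 9 (0.0611), nor under median scaling (0.0573).

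HIST2H2AA3 and HIST2H2AA4 are near-identical copies of an H2A gene and their probes may read both. HIST2H2AA3 read 8.31, 7.99 and 8.52 in controls, 8.997, 8.71 and 8.46 under 25 nM, 8.97, 9.42 and 8.79 under 71.25 nM, and 10.34, 10.18 and 10.40 in the resistant cells. HIST2H2AA3 rose by 0.78 ± 0.18 at 71.25 nM (adjusted p = 0.00374) and by 2.03 ± 0.18 in resistant cells (7.8e-07), and HIST2H2AA4 by 0.52 and 1.72; the resistant arrays of HIST2H2AA3 lay above all others. The 71.25 nM call of HIST2H2AA4 was lost without control array 1 (adjusted p = 0.0692) or 71.25 nM array 8 (0.0724).

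HIST2H4A and HIST2H4B form another near-identical pair, of H4 genes. HIST2H4A read 6.28, 6.08 and 6.12 in controls, 6.71, 6.57 and 6.66 under 25 nM, 6.74, 6.54 and 6.62 under 71.25 nM, and 7.41, 7.70 and 7.76 in the resistant cells, with no control array above any of the others. Its log2 differences were 0.49, 0.47 and 1.46 (SE 0.11; adjusted p = 0.0066, 0.00528 and 2.2e-07). HIST2H4B was called in resistant cells only, at 1.20 ± 0.15 (adjusted p = 1.72e-05), with 0.35 and 0.25 at the doses.

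Members of the named polyadenylated set that were not called at either dose still rose in the resistant cells. HIST1H1C, which encodes the linker histone H1.2, differed from control by 0.03 at 25 nM and 0.05 at 71.25 nM and rose by 0.82 ± 0.12 in resistant cells (adjusted p = 6.28e-05). HIST1H2AC gave 0.34, 0.25 and a rise of 0.97 ± 0.14 (adjusted p = 6.71e-05); housekeeping scaling called it at both doses too (0.0294 and 0.0386). In all, 3, 5 and 7 of the 7 genes of the set were called higher under the lower dose, the higher dose and resistance, and 0 lower, with median log2 differences of 0.45, 0.46 and 1.72. The set was chosen with earlier results of these data known and is no independent evidence of its direction.

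The falls lay mostly in the chromosome 6 cluster. HIST1H2BM, an H2B gene, read 6.63, 6.24 and 6.16 in controls, 5.20, 5.75 and 5.70 under 25 nM, 5.21, 5.00 and 4.94 under 71.25 nM, and 4.69, 4.64 and 4.71 in the resistant cells. It fell by 0.79 and 1.29 at the doses (SE 0.16; adjusted p = 0.00216 and 2.32e-05). No resistant array detected it, so that it was at least 2.85-fold lower there (adjusted p = 1.27e-06); the bound sets the control mean against the lowest detected signal of each resistant array.

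HIST1H2BH, also an H2B gene, stepped down through the groups. Controls read 6.80, 6.80 and 7.06, the 25 nM arrays 6.46, 6.33 and 6.42, the 71.25 nM arrays 5.75, 5.96 and 5.72, and the resistant arrays 4.95, 5.52 and 5.70. No group overlapped another. It fell by 1.07 ± 0.16 at 71.25 nM (adjusted p = 0.000156) and by 1.49 ± 0.16 in resistant cells (5.06e-06). The 25 nM difference of -0.48 (adjusted p = 0.0442) missed the threshold when any 1 of 9 arrays was left out, namely control arrays 1, 2 and 3, 25 nM arrays 4, 5 and 6, 71.25 nM arrays 7 and 9, and resistant array 11, with adjusted p up to 0.149; it also missed it under median scaling (0.0593) and housekeeping scaling (0.142).

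HIST1H3C and HIST1H3J encode the same replication-dependent H3. HIST1H3C read 6.48, 6.22 and 6.14 in controls, 5.55, 5.53 and 5.43 under 25 nM, 5.98, 5.54 and 5.19 under 71.25 nM, and 4.52, 4.61 and 4.91 in the resistant cells, and fell by 0.78, 0.71 and 1.60 (SE 0.17; adjusted p = 0.00479, 0.00524 and 4.79e-06). HIST1H3J read 6.41, 6.03 and 6.35 in controls, 5.16, 5.28 and 5.57 under 25 nM, 5.40, 5.10 and 4.89 under 71.25 nM, and 4.86, 4.93 and 4.91 in the resistant cells. It fell by 0.93, 1.13 and 1.36 (SE 0.15; adjusted p = 0.00047, 4.48e-05 and 4.9e-06). In both genes all 9 other arrays lay below the controls. HIST1H3C was detected on only 1 of the 3 resistant arrays, so the size of its fall there is limited by the background.

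Among H4 genes HIST1H4C and HIST1H4K fell where HIST1H4H and HIST2H4A rose. HIST1H4C read 14.02, 13.83 and 13.93 in controls, 13.31, 13.35 and 13.38 under 25 nM, 13.13, 13.12 and 12.64 under 71.25 nM, and 12.58, 12.81 and 12.70 in the resistant cells, and fell by 0.58, 0.96 and 1.23 (SE 0.13; adjusted p = 0.00514, 6.03e-05 and 4.08e-06). HIST1H4K read 7.77, 7.59 and 7.98 in controls, 7.31, 7.20 and 7.47 under 25 nM, 6.99, 7.26 and 6.28 under 71.25 nM, and 6.89, 6.69 and 6.38 in the resistant cells. HIST1H4K gave -0.45 at 25 nM, which was not called, and fell by 0.94 and 1.12 in the other groups (adjusted p = 0.00313 and 0.000578). Of 8 measured H4 genes, 3 were called higher in resistant cells, 3 lower and 2 not called. Each 37.5% of so short a list stands beside 23% of all genes higher and 24.1% lower.

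**Figure D2:**
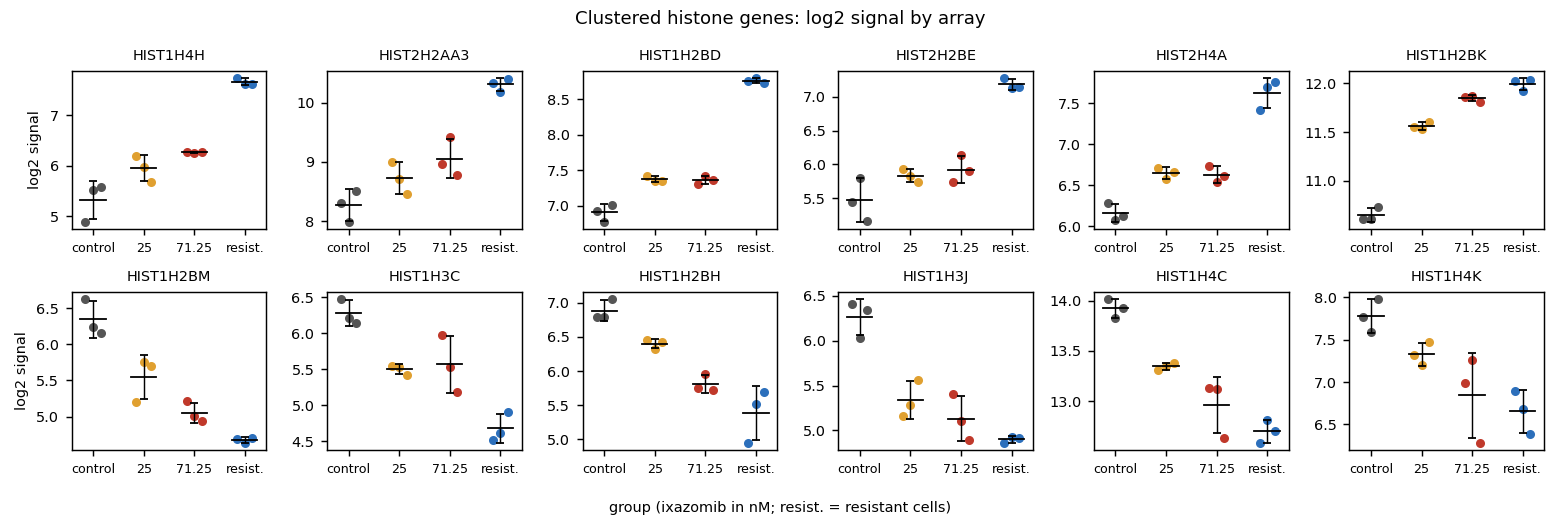
Log2 signal (y axis) on each array of the 12 clustered genes described, by group (x axis; ixazomib in nM), with the mean as a line and bars of 1 SD over 3 arrays. In the upper row the resistant arrays are the highest, in HIST1H4H at 7.62 to 7.75; in the lower row the controls are, in HIST1H4C at 13.83 to 14.02.

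Falls were counted mostly in HIST1 and rises in both large clusters. Of 35 measured HIST1 genes on chromosome 6, 8 fell under the lower dose, 11 under the higher and 12 in resistant cells, while 3, 5 and 9 rose. The falls made up 22.9%, 31.4% and 34.3% of these genes, against 13.7%, 19.6% and 24.1% of all genes, and the rises 8.57%, 14.3% and 25.7%, below or near the 13.3%, 19.4% and 23% of all genes. Of 11 measured HIST2 genes on chromosome 1, 0, 0 and 1 fell (HIST2H3C in resistant cells) and 1, 5 and 6 rose. Among the rises at 71.25 nM, HIST2H3A was detected on 2 of the 71.25 nM arrays and on no control array. Its call was lost without control array 1 (adjusted p = 0.078) or 71.25 nM array 7 (0.0938). The HIST2 medians of 0.23, 0.40 and 0.95 stayed above 0 under each scaling tried, with 0.62 as the lowest value in resistant cells. These counts were not tested against each other, and HIST2H2AA3 with HIST2H2AA4, HIST2H3A with HIST2H3C, and HIST2H4A with HIST2H4B are near-identical copies.

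**Figure D3:**
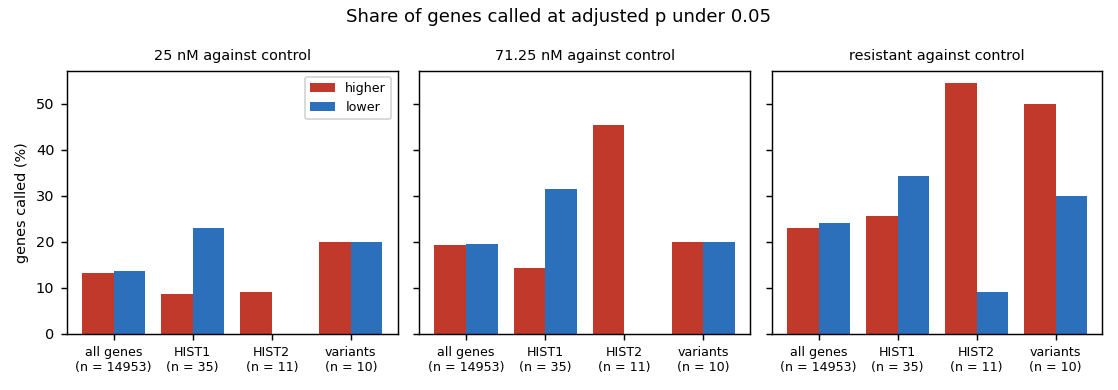
Percent of measured genes called higher or lower (y axis) among all genes, HIST1 genes, HIST2 genes and variants (x axis), in the 3 comparisons with control. HIST2 genes rise with few falls, 6 higher and 1 lower of 11 in resistant cells, where all genes stand at 23% and 24.1%.

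HIST3H2A, the single measured gene of the small HIST3 cluster and an H2A gene, fell under the drug. It read 9.32, 8.98 and 9.58 in controls, 8.80, 8.31 and 8.52 under 25 nM, 8.20, 8.46 and 8.07 under 71.25 nM, and 8.72, 8.61 and 9.36 in the resistant cells. The differences were -0.75 (adjusted p = 0.0156) and -1.05 (0.00112) at the doses and -0.39, not called, in resistant cells, where median scaling gave a call (adjusted p = 0.00272). The 25 nM call was lost without control array 3 (0.0691) or 25 nM array 5 (0.0655).

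Genes on the 2 sides of a shared promoter were often called differently. Of 12 head-to-head pairs whose starts lay within 300 bases, 5 had both genes measured. HIST1H3D has 2 listed starts and was placed by the first, which gives it the same region before HIST1H2BF as HIST1H2AD. That region therefore counts under both pairs, and HIST1H2AD was not measured. HIST2H2BE and HIST2H2AC both rose in resistant cells, by 1.72 and 0.95, while at 25 nM they stood at 0.36 and -0.30, neither called. Across the region printed for HIST1H2BC and HIST1H2AC, HIST1H2AC rose by 0.97 in resistant cells and HIST1H2BC fell by 0.63 ± 0.23 (adjusted p = 0.0351), though its control and resistant arrays overlapped. HIST1H2AC read 5.73, 5.74 and 5.42 in controls and 6.50, 6.61 and 6.70 in resistant cells; HIST1H2BC read 6.06, 5.33 and 6.15, and 4.93, 5.13 and 5.58.

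HIST1H2BJ and HIST1H2AG, whose region holds an octamer next to HIST1H2BJ, were called in different groups. HIST1H2BJ rose at 71.25 nM by 0.68 ± 0.16 (adjusted p = 0.00471) and stood at 0.15 in resistant cells, and HIST1H2AG stood at 0.29 at 71.25 nM and rose by 1.02 ± 0.22 in resistant cells (adjusted p = 0.00149). In resistant cells HIST1H3D stood at 0.51 and was called, though its control and resistant arrays overlapped. It read 4.90, 4.57 and 5.26 in controls and 5.09, 5.59 and 5.59 in resistant cells. HIST1H2BF, its partner by the first of the 2 listed HIST1H3D starts, was called at least 1.47-fold lower and detected on no resistant array. HIST1H2BG fell at both doses, by 0.63 and 0.57, the second call being lost under housekeeping scaling (-0.43, adjusted p = 0.057), beside HIST1H2AE at 0.11 and 0.06. The difference between the genes of a pair was not tested. The octamer was present in 6 of 15 clustered genes called higher in resistant cells (40%), 4 of 11 called lower (36.4%) and 8 of 19 not called (42.1%) that had a promoter entry. In the same order it was present at 25 nM in 1 of 4 (25%), 5 of 7 (71.4%) and 12 of 34 (35.3%). The counts at 71.25 nM were 3 of 10 (30%), 5 of 10 (50%) and 10 of 25 (40%). These shares were not tested.

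**Figure D4:**
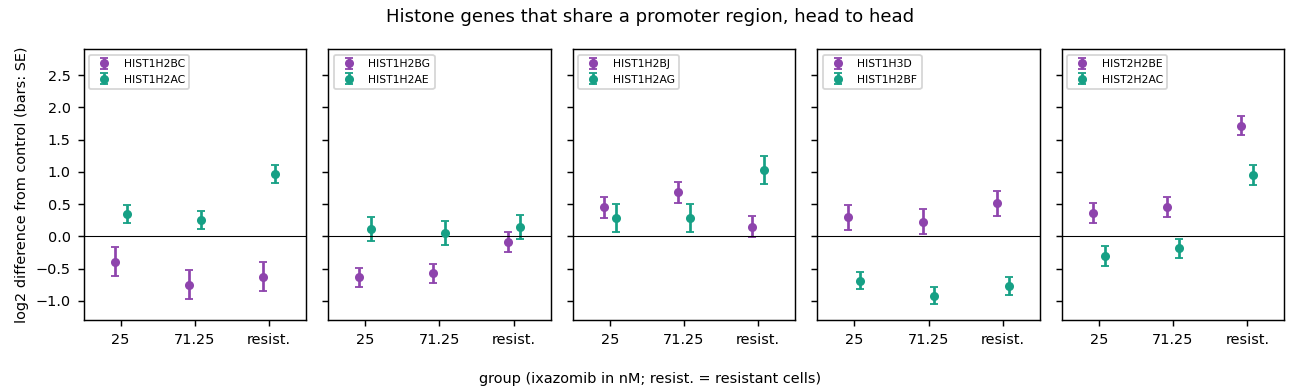
Log2 difference from control (y axis, bars of 1 standard error) under 25 nM, under 71.25 nM and in resistant cells (x axis) for the 5 head-to-head pairs with both genes measured. HIST1H3D is paired by the first of its 2 listed starts. In resistant cells HIST2H2BE and HIST2H2AC lie above 0 together, at 1.72 and 0.95, and HIST1H2AC and HIST1H2BC lie on opposite sides, at 0.97 and -0.63.

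All 10 measured variant genes were detected on every array. At 25 nM and at 71.25 nM 2 of the 10 rose and 2 fell, and in resistant cells 5 rose and 3 fell. At 25 nM the 20% in each direction stood beside 13.3% of all genes higher and 13.7% lower. The 20% in each direction at 71.25 nM lay at the 19.4% and 19.6% of all genes. In resistant cells 50% higher and 30% lower stood beside 23% and 24.1% of all genes. However, 1 gene is 10% of so short a list. The 2 genes higher at each dose were H2AFB1 and H2AFB2, near-identical copies whose probes may read both. Their median log2 difference from control was -0.01, 0.02 and 0.19. Under scaling on array medians the resistant value was -0.17 and 2 rather than 5 variants were called higher, so the direction of the variants as a group in resistant cells depended on the scaling. Over all 15 variants without the detection filter the resistant median was -0.004.

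H3F3A, 1 of the 2 genes for the replacement histone H3.3, fell in all 3 comparisons. It read 13.43, 13.58 and 13.48 in controls, 12.83, 12.87 and 12.75 under 25 nM, 12.79, 12.82 and 12.75 under 71.25 nM, and 12.68, 12.62 and 12.63 in the resistant cells. Every other array lay below every control. The falls were 0.68, 0.71 and 0.86 (SE 0.09; adjusted p = 0.00012, 3.62e-05 and 3.85e-06), and its other 2 probes fell alike, by 0.62 and 0.55 at the lower dose, by 0.61 and 0.64 at the higher dose, and by 0.97 and 0.91 in resistant cells.

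H3F3B, the other H3.3 gene, which encodes the same protein, was not called at either dose. It read 7.66, 7.87 and 7.66 in controls and 8.11, 8.57 and 7.86 in resistant cells, and these groups overlapped. The difference of 0.45 ± 0.16 was called (adjusted p = 0.0301) but not without control array 1 (0.0856), control array 3 (0.0832) or resistant array 11 (0.149), nor under median scaling (0.443) or without the filter (0.0606).

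H2AFB1 and H2AFB2 encode H2A.B, a short H2A variant best known from testis, and are near-identical copies on the X chromosome whose probes may read both. H2AFB1 read 9.83, 9.72 and 9.73 in controls, 10.55, 10.52 and 10.53 under 25 nM, 10.59, 10.54 and 10.50 under 71.25 nM, and 10.33, 10.62 and 10.63 in the resistant cells. The drug groups and the resistant cells overlapped each other and stood above the controls. H2AFB1 rose by 0.77, 0.78 and 0.77 (SE 0.10; adjusted p = 0.000107, 4.35e-05 and 3.15e-05) and H2AFB2 by 0.71, 0.72 and 0.70, the last not called under median scaling (adjusted p = 0.0816). Another copy, H2AFB3, was detected on no array.

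H1FX, a linker histone variant, fell at the higher dose and was not called in resistant cells. It read 9.17, 8.88 and 9.18 in controls, 8.82, 8.53 and 8.83 under 25 nM, 8.35, 8.26 and 8.12 under 71.25 nM, and 9.05, 9.05 and 9.01 in the resistant cells. The resistant arrays lay within the range of the controls. It fell by 0.83 ± 0.12 at 71.25 nM (adjusted p = 9.19e-05) and stood at -0.04 in resistant cells (adjusted p = 0.828). The 25 nM difference of -0.35 (adjusted p = 0.0444) was lost without any 1 of 10 arrays, that is all but control array 2 and 71.25 nM array 9, with adjusted p up to 0.184, and under median scaling (0.0984) or housekeeping scaling (0.118).

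The H2A.Z genes H2AFZ and H2AFV were called in opposite directions in resistant cells. H2AFZ read 13.30, 13.31 and 13.20 in controls and 12.96, 12.97 and 12.95 in resistant cells, a difference of -0.31 ± 0.10 (adjusted p = 0.0227), and its other arrays overlapped the controls. That call was lost without control array 1 (0.0604), control array 2 (0.058), resistant array 11 (0.0518) or resistant array 12 (0.0556), and with cyclic loess (0.0562). H2AFV read 5.72, 5.18 and 5.01 in controls and 5.82, 5.82 and 5.93 in resistant cells, a rise of 0.55 ± 0.15 (adjusted p = 0.00951).

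The brightest probes of the remaining variants were not called at the doses. H2AFX, whose product is phosphorylated at DNA breaks, differed from control by -0.02, -0.07 and -0.23 and was not called. In resistant cells it was called lower under median scaling (-0.54, adjusted p = 0.0118) and on the authors' values with a replicate block (-0.19, adjusted p = 0.0445). H2AFY, which encodes macroH2A1, read 12.44, 12.53 and 12.42 in controls and 12.17, 12.03 and 12.14 in resistant cells and fell by 0.35 ± 0.09 there (adjusted p = 0.00639). Of the other 2 H2AFY probes, 1 gave the same calls, at -0.04, -0.22 and -0.70, the last called (adjusted p = 9.34e-05). The other stood at -0.44, -0.76 and -0.28. It was called lower at the doses (adjusted p = 0.0308 and 0.000701) and not called in resistant cells (0.122). With the mean of the H2AFY probes the 71.25 nM difference was -0.33 and was called (adjusted p = 0.00656). H2AFJ, a replication-independent H2A, differed by 0.01 and -0.22 at the doses and by 0.42 ± 0.14 in resistant cells (adjusted p = 0.0237), a call lost without control array 1 (0.0963), control array 2 (0.068), resistant array 10 (0.0635) or resistant array 11 (0.053) and under median scaling (0.858) or housekeeping scaling (0.0673).

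**Figure D5:**
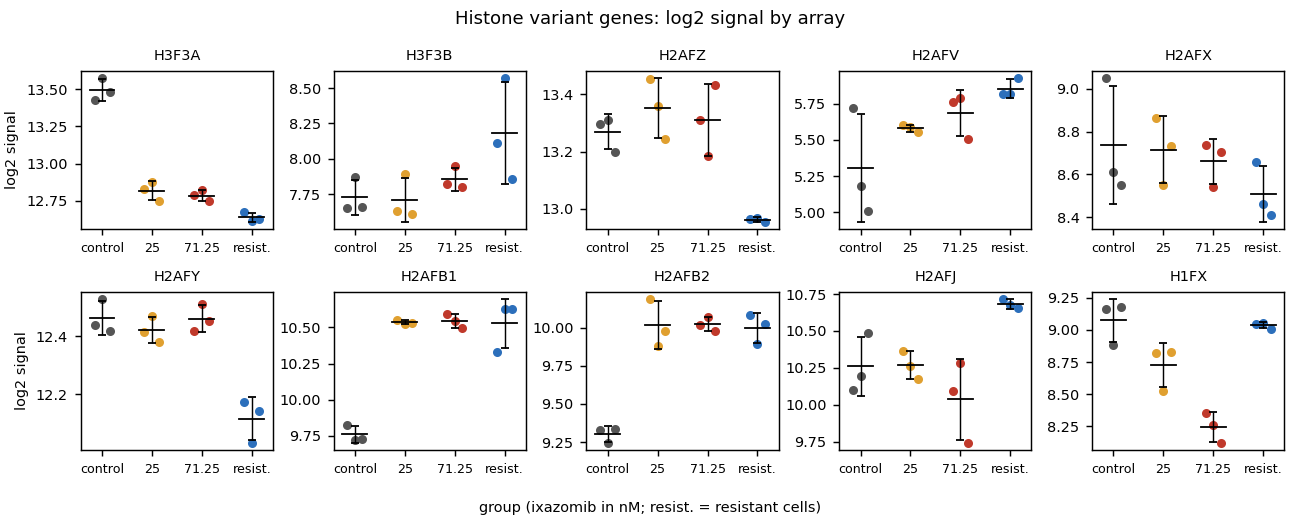
Log2 signal (y axis) on each array of the 10 measured variant genes, by group (x axis; ixazomib in nM), with the mean as a line and bars of 1 SD over 3 arrays. H3F3A falls from 13.43 to 13.58 in controls to 12.62 to 12.68 in resistant cells, H2AFB1 and H2AFB2 rise in all 3 groups, and the H1FX arrays at 71.25 nM (8.12 to 8.35) are its lowest.

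Few histone genes were called between the 2 doses, as among all genes. Between 71.25 nM and 25 nM 2.98% of all genes were called higher and 2.88% lower by limma. Of the clustered genes 0 were called in either direction, with 3 higher and 5 lower at an unadjusted p under 0.05, and 1 clustered gene higher and 2 lower were called on the authors' values. HIST1H2BH stood at -0.59, just short of a call (adjusted p = 0.0513), and was called lower in 9 of 11 other settings. HIST1H2BK stood at 0.28 (adjusted p = 0.086) and was called higher in 5 of 11. One clustered gene was called higher without 71.25 nM array 7. HIST1H2BM was called lower without 25 nM array 4 (adjusted p = 0.0286), and HIST1H2BH without resistant array 10 (0.0125) or 12 (0.0359). H1FX was the 1 variant called, lower at the higher dose by 0.48 ± 0.12 (adjusted p = 0.032). That call was lost without 25 nM array 4 (0.113) or 6 (0.123), or without 71.25 nM array 7 (0.0565), 8 (0.0656) or 9 (0.12).

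Resistant cells stood apart from cells treated at 71.25 nM mainly through genes that were higher. Of the clustered genes 15 of 47 were higher and 6 lower, where 11.3% of all genes were higher and 10.3% lower, and 2 variants were higher and 2 lower. The largest differences were 1.40 for HIST1H2BD and for HIST1H4H, 1.26 for HIST2H2BE and 1.25 for HIST2H2AA3 (adjusted p = 5.99e-07, 5.59e-05, 5.39e-05 and 0.000252). HIST1H2BK differed by 0.14 and was not called. The lower genes were led by the H3 genes HIST1H3G, at -1.06 ± 0.17 (adjusted p = 0.000617), and HIST1H3C, at -0.89 ± 0.17 (0.00241). HIST1H3G was detected on 2 of 3 resistant arrays and HIST1H3C on 1, so both sizes are limited by the background.

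HIST1H3G read 5.85, 5.30 and 6.09 in controls, 5.77, 5.93 and 6.12 under 25 nM, 5.79, 6.03 and 6.01 under 71.25 nM, and 5.00, 4.90 and 4.75 in the resistant cells. Its resistant arrays alone lay below the rest. HIST1H2BJ (-0.54, adjusted p = 0.0326) was called lower too. So was HIST1H4B (adjusted p = 0.0279), which was detected on 2 of the 71.25 nM arrays and on no resistant array and was at least 1.15-fold lower. The first call was lost without 71.25 nM array 7 (0.103) or 9 (0.0955) or resistant array 10 (0.125), without the filter (0.0662) and in a fit of the 2 groups (0.0748). The second was lost in 7 of 10 other settings, among them housekeeping scaling (0.181) and the authors' values (0.0582), and without 71.25 nM array 7 (0.0743) or 8 (0.117) or resistant array 10 (0.067) or 11 (0.0949). The count of 6 lower became 2 without 71.25 nM array 7 and 3 without 71.25 nM array 8 or resistant array 10.

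Among the variants, H1FX was 0.79 ± 0.12 higher in resistant cells than at 71.25 nM (adjusted p = 0.000318) and H2AFJ 0.65 ± 0.14 higher (0.00472; under median scaling 0.0901). H2AFY (-0.34, adjusted p = 0.0156) and H2AFZ (-0.35, 0.0247) were lower. H2AFY was not called without 71.25 nM array 8 (0.0509) or resistant array 11 (0.0617), nor with the mean of its probes (0.366). Its other probes were called in opposite directions, at -0.48 (adjusted p = 0.0054) and 0.48 (0.025). H2AFZ was not called without 71.25 nM array 7 (0.068) or 9 (0.0925) or resistant array 10 (0.0575), 11 (0.0611) or 12 (0.0661).

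Group means ordered from control down through 25 nM and 71.25 nM to resistant cells were seen in 6 of 47 clustered genes (12.8%) and in 12.5% of all genes. The 6 were HIST1H2BH, HIST1H2BM, HIST1H3J, HIST1H4C, HIST1H4J and HIST1H4K. The opposite order was seen in 9 clustered genes (19.1%) and 12% of all genes, and 5 of the 7 genes of the named polyadenylated set followed it. The falling share is near that of all genes.

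Genes that process or activate histone transcripts were called in both directions. Of 21 measured processing and transcription factors, 2, 4 and 3 rose and 2, 5 and 8 fell under the lower dose, the higher dose and resistance. Of all genes 13.3%, 19.4% and 23% were higher and 13.7%, 19.6% and 24.1% lower; at both doses the counts lay near or below these shares. HINFP, a transcription factor of H4 genes, rose by 0.47, 0.90 and 0.86 (adjusted p = 0.00264, 6.76e-06 and 5.37e-06). MIF4GD, a partner of SLBP in histone mRNA translation, fell by 0.47, 0.83 and 0.77 (adjusted p = 0.00606, 4.43e-05 and 5.06e-05). SLBP itself gave 0.03, 0.17 and 0.05, and NPAT, the coactivator of clustered histone genes, 0.03, 0.32 and 0.17, none called.

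Falls among histone chaperones were most numerous in resistant cells. Of 30 measured chaperones and variant exchangers, 4, 5 and 2 rose and 5, 9 and 17 fell. At 25 nM these counts lay near the 13.3% and 13.7% of all genes. At 71.25 nM 19.4% of all genes were higher and 19.6% lower, and in resistant cells 23% and 24.1%. In resistant cells the centromeric H3 variant gene CENPA fell by 1.55 and OIP5, which helps load it, by 1.52, and CHAF1A and CHAF1B, subunits of the chromatin assembly factor that works behind the replication fork, fell by 1.17 and 1.14 (adjusted p = 2.15e-08, 1.43e-07, 3.51e-06 and 9.59e-07). HJURP, the chaperone of CENPA, rose by 0.53 at 25 nM and 0.83 at 71.25 nM (adjusted p = 0.00183 and 2.76e-05), and NASP, an H3 and H4 chaperone, fell by 0.89 and 0.66. ASF1B fell by 0.81 in resistant cells (adjusted p = 2.72e-05), where its paralogue ASF1A stood at -0.07. Of the genes that deposit H3.3, HIRA gave -0.10, -0.37 and -0.63 and ATRX -0.12, -0.45 and -0.67, called in resistant cells only (adjusted p = 0.0184 and 0.00526), and DAXX -0.12, -0.08 and 0.13, not called.

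Most S phase and replication genes fell in resistant cells, and fewer did so at the doses. Of 34 measured, 10 fell and 5 rose at 25 nM, 15 fell and 5 rose at 71.25 nM, and 28 fell and 2 rose in resistant cells, with median log2 differences of -0.12, -0.23 and -1.24. Of all genes 13.7%, 19.6% and 24.1% were called lower and 13.3%, 19.4% and 23% higher. RRM2, a subunit of ribonucleotide reductase, rose by 0.68 at 25 nM and 0.72 at 71.25 nM and fell by 1.24 in resistant cells (adjusted p = 0.00205, 0.000802 and 4.36e-06). PCNA, the replication clamp, fell by 0.64 at 25 nM and 0.94 at 71.25 nM, and in resistant cells CCNA2, the S phase cyclin A, fell by 2.03 and TYMS, the thymidylate synthase, by 1.98 (adjusted p = 0.00062, 1.25e-05, 1.21e-08 and 4.93e-09). The clustered genes had a median of -0.03 in resistant cells with 15 of 47 higher and 13 lower. The part of S phase cells in the histone results was not tested.

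Genes whose 4 group means ran most like those of 2 members were named by Pearson's r over the 4 means, a measure that many genes pass with so few points. H2AFX was followed by TRIP13, HNRNPUL2 and TBX21 among 182 genes with r over 0.99, and HIST1H1C by IL12RB1, STARD10 and ITM2C among 141. The points share the same arrays and normalisation, and the likeness is a description only.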

How the data were processed

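Total RNA of 12 L428 samples was labelled as biotinylated cRNA (Ambion MessageAmp) and hybridised to Illumina HT-12 arrays, per the labels' protocols. The authors deposited a table of probe signal intensity without normalisation, with a detection p-value per probe and array against negative controls, and a second table of intensity that was corrected through housekeeping genes and quantile normalised, per the design text; its linear scale was read from the values, and neither labels nor headers name the scanner software. Column names tie the signal columns to groups but not to replicate numbers, so arrays carry the table's own numbers, 1 to 12.

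From the deposited signal intensity, background was corrected by normexp with detection p-values (offset 16) and arrays were quantile normalised (limma 3.58.1, R 4.3.3). Probes with detection p under 0.05 on at least 3 arrays were kept, 20414 of 47227; 54 probes with symbols altered to dates were left out. A mean per group was fitted over all 12 arrays with lmFit and eBayes, two-sided, with Benjamini-Hochberg adjustment over kept probes. Each gene was read by its brightest kept probe. The fit was tested on simulated data. The members and lists were chosen with earlier results of these data known.

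Named genes were, per comparison with control, up to 6 clustered genes called each way, all measured variants, up to 4 each way in other comparisons, the 7 genes of the polyadenylated set, and up to 4 per list. HIST2H2AC, HIST1H2AG, HIST1H3D, HIST1H2AE and other genes outside this rule were named after their values were seen. Alternatives changed the scaling, background, filter, probe choice, samples fitted and table used, or left out each array. The authors' values matched the signal columns (Spearman 0.9997 to 1.0000, every column in its own group), with column medians of 103.9 to 104.8.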

Additional observations from a re-analysis of the deposited data

How the results depend on the processing

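Counts of calls were recomputed under 11 alternatives; 204 of 231 such values stayed within 1.5 times the reported one. With housekeeping scaling 9 clustered genes rose at 25 nM rather than 4. The variants lower at 25 nM became 1 rather than 2 under median scaling, housekeeping scaling, no filter or a fit of only the 2 groups compared. Variants higher in resistant cells became 2 rather than 5 under median scaling. For 71.25 nM against 25 nM, 1 clustered gene was higher rather than 0 with no background correction, offset 50, no filter or the authors' values; 1 was lower under median scaling, cyclic loess, detection on 6 arrays, the mean of the probes or 2 groups, and 2 with no background correction, offset 50 or the authors' values; the 1 variant lower became 0 under median scaling and 2 groups. For resistant cells against 71.25 nM, the clustered genes lower became 3 (housekeeping scaling), 2 (no filter) and 3 (2 groups) rather than 6, the variants higher 1 under median scaling and the variants lower 1 with 2 groups.

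Leaving out each array in turn gave, for clustered genes higher and then lower, 3 to 5 and 6 to 11 at 25 nM, 7 to 10 and 10 to 13 at 71.25 nM, 13 to 15 and 11 to 14 in resistant cells, 0 to 1 and 0 to 1 between the doses, and 10 to 15 and 2 to 8 for resistant cells against 71.25 nM. For variants it gave 2 to 3 and 1 to 2, 2 to 3 and 2 to 2, 3 to 5 and 2 to 3, 0 to 0 and 0 to 1, and 2 to 3 and 0 to 2. Variants higher in resistant cells were 3 without control array 1 or resistant array 11. Genes differing across the 4 groups were 31 to 38 rather than 40.

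Of 82 called single-gene differences 62 held under every alternative and 0 reversed. Same-numbered samples did not deviate together (r from -0.286 to 0.161 over 18 pairs, 2 above 0.1; 3 of 12 samples correlated best with their own number), so the numbers are no pairing; a replicate block, possible on the authors' values only, called 1 clustered gene higher and 2 lower between the doses. Median scaling put the median of all genes at -0.143 in resistant cells against control and -0.128 against 71.25 nM, and made 30.5% and 27% of called genes higher rather than 48.8% and 52.4%; housekeeping scaling made 65%, 62.7% and 62.9% higher at 25 nM, 71.25 nM and in resistant cells rather than 49.4%, 49.7% and 48.8%. The cause of these shifts was not tested. Dim probes near background limit 24 of the 57 genes, which were not detected on every array.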
